A study of Mus musculus with 6 samples.

Results

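The histone genes were taken as every gene whose symbol begins with Hist1h, Hist2h, Hist3h or Hist4h (the replication-dependent genes) or with H1f, H2af or H3f (the genes of the replacement variants), and that had a rounded count of 1 or more in at least 1 sample. Of 17463 genes in the deposited tables, 77 carried such a symbol and 75 met the count rule; the remaining 2 were at 0 in all 6 samples. The 75 genes comprised 64 replication-dependent genes and 11 replacement variant genes, of which H3f3c is annotated as a processed pseudogene. The RNA came from erythroblasts of C57BL/6J mouse fetal liver. TER119-negative cells, the precursors that still lack this red cell surface marker, were cultured in medium with erythropoietin (Epo) for 30 h, either untreated (control, n = 3) or with 40 µM cholesterol (n = 3), and the cells that had become TER119-positive were sorted. Legends in the study call these controls vehicle-treated, while the labels call them untreated and name no vehicle. All samples were therefore a culture of primary cells in Epo with a shared sort gate, and the labels do not say whether the replicates came from separate litters, so p-values measure the spread between these samples. Replicate numbers 1 to 3 occur in both groups, and same-numbered samples are called pairs.

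Replication-dependent histone genes supply the core histones H2A, H2B, H3 and H4 and the linker histone H1 during S phase. Their messages are unusual in that most end in a conserved stem-loop and carry no poly(A) tail; the stem-loop is bound by Slbp and the message is destroyed when DNA synthesis stops. The replacement variants are made outside S phase as well, from ordinary polyadenylated messages. These libraries were prepared from mRNA captured on oligo(dT) beads, so they report the polyadenylated histone transcripts, and the stem-loop messages only as far as they carried adenosines or were carried over. Terminal erythroblasts divide a few times while they condense their nucleus before expelling it, and histone supply and loss are part of that program.

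The stem-loop was searched for by its consensus, on the sense strand, in the annotated transcripts of GENCODE M21 (build GRCm38). It was found in 44 of the 64 replication-dependent genes and in 1 of the 11 replacement variant genes, H2afx, against 53 of all 21877 protein-coding genes (0.242%). The 45 matches fell into 9 distinct sequences. One of them occurred in 25 genes of the H1, H2A, H2B and H3 classes, and none of those 25 was an H4 gene. The sequences of 6 genes are printed because these genes gave the highest levels among those with a stem-loop, or were called in the comparison with cholesterol. The stem-loop itself is in capitals, the flanking bases are in lower case, and each lies in the 3′ UTR of a single-exon gene.
Hist1h2ap: aaaGGCTCTTTTCAGAGCCatc
Hist1h2ao: aaaGGCTCTTTTCAGAGCCatcca
Hist3h2a: aaaGGCTCTTTTCAGAGCCaccca
Hist1h1c: aaaGGCTCTTTTCAGAGCCaccac
Hist1h4i: aaaGGCCCTTTTTAGGGCCaccac
H2afx: aaaGGCCCTTTTAAGGGCCaccac
Hist1h2ap lies at chr13:21833026-21833507 (minus strand), Hist1h2ao at chr13:21810465-21810944 (plus), Hist1h1c at chr13:23738808-23740367 (plus) and Hist1h4i at chr13:22040636-22041362 (minus). Hist3h2a lies at chr11:58954685-58956830 (plus) and H2afx at chr9:44334694-44336077 (plus). The first 4 belong to the large Hist1h cluster on chromosome 13, which held 52 of the 75 genes.

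The annotation places the 3′ end differently in different genes. In 22 replication-dependent genes the transcript ends within 60 bases of the stem-loop, and none of these has the polyadenylation hexamer AATAAA in its last 50 bases. In another 22 genes the annotated transcript runs on for more than 60 bases past the stem-loop, and 8 of them (36.4%) have the hexamer there. Of the 20 genes with no match, 2 (10%) have it. Some of these annotated transcripts are shorter than the length implied by the deposited values, which is described below. Examples are Hist1h2ak (393 bases annotated, 515 implied) and Hist1h4k (312 annotated, 384 implied). A missing match therefore does not show that the gene lacks a stem-loop, and the same holds for the hexamer. Across all protein-coding transcripts the share was 40.6%, and among the replacement variants it was 6 of 11. A match is a description of the annotated letters and was not tied to the reads.

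The deposited values tell which of these ends was counted. The count, the value per kilobase and the sample total together give the transcript length that the processing used. For 21 replication-dependent genes with a long extension and enough counts, that implied length was a median of 97.3% of the length up to the end of the stem-loop. It was a median of 45.5% of the annotated transcript. The transcript used was the longest one of the gene with the stem-loop, which favours a gap to the whole where a gene has several. Of the 21 genes, 19 lay within 20% of the length to the stem-loop and 0 within 20% of the whole. For Hist1h1c the implied length was 710 bases, where the stem-loop ends at base 720 of a transcript of 1560 bases. For Hist1h4i it was 378 bases against 397 and 727. In H2afx, the exception with a stem-loop, the implied length was 1369 bases of 1384. H2afx is known to give both a stem-loop message and a longer polyadenylated one, and the processing used the longer transcript as its reference; reads of the shorter form would map to it too. Hist2h2be, which has no stem-loop match, was also counted over a long transcript, with an implied length of 2715 bases where the annotation has 2620. For those 19 genes the length behind the deposited values thus leaves out the extension past the stem-loop.

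**Figure D1:**
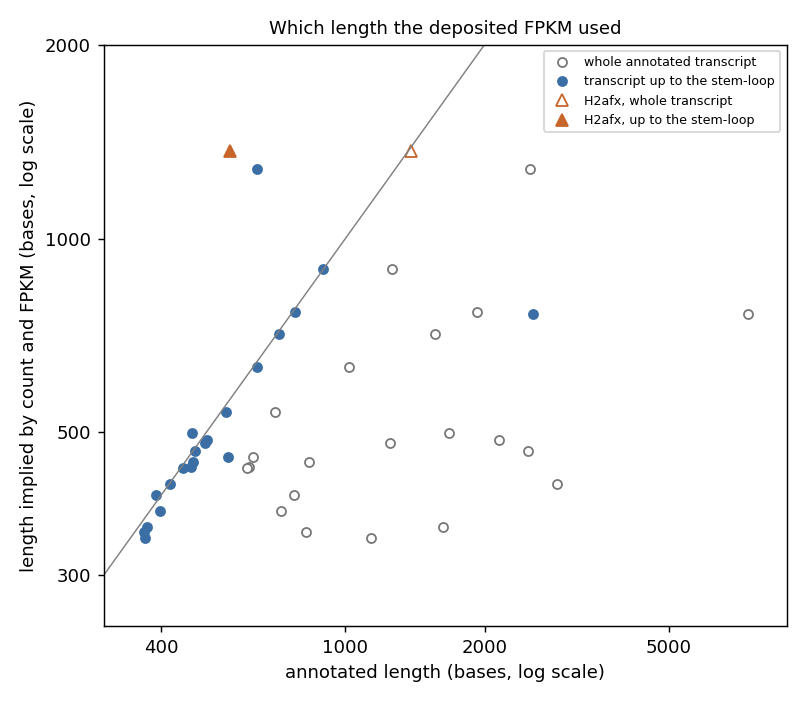
Length implied by the deposited count and FPKM (y axis, bases, log scale) against the annotated length (x axis, bases, log scale) for the histone genes whose transcript runs on for more than 60 bases past the stem-loop; filled symbols use the length up to the stem-loop, open symbols the whole transcript, triangles mark H2afx, and the line marks equal lengths. The filled circles of 19 of 21 replication-dependent genes lie within 20% of the line, while for H2afx the open triangle does.

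Each sample held between 19826849 and 20061724 counts in all, and the histone genes took between 0.353% and 0.397% of them. The weight of 3 counts was 0.148 to 0.156 CPM by sample (CPM are counts scaled to a common library size), which sets the floor of detection and covers counting error only. Globin transcripts, the main product of these cells, took 12.5% to 17.9% of the counts, with control 3 and cholesterol 3 the highest of their groups. The erythroid markers were all detected (12 of 12). Markers of granulocytes were also present (10 of 10 genes), at summed levels of 72.6 to 728 CPM in control and 44.0 to 303 CPM in cholesterol samples.

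Levels between genes were compared as FPKM, that is per kilobase of transcript and scaled to the depth of the sample. The highest level belonged to H3f3a, at a mean of 1319 FPKM over the 6 samples, which ranked 52 of 17463 genes. Second was a replication-dependent gene, Hist1h2ap, at 940 FPKM (rank 88). H3f3a and H3f3b encode the same replacement protein, H3.3, which is deposited at transcribed genes outside replication; H3f3b stood at 340 FPKM. H2afz, which encodes H2A.Z, stood at 542 FPKM and H2afx, which encodes the H2A.X that is phosphorylated around DNA breaks, at 193 FPKM. Next in order were Hist1h2ao (107 FPKM), Hist1h4i (48.2 FPKM), H2afj (40.3 FPKM) and H1f0 (34.9 FPKM), the linker histone H1.0 known from cells that leave the cell cycle. From H3f3a down to Hist1h4i, neighbours in this order did not overlap over the 6 samples. Hist1h4i and H2afj overlapped, as did H2afj and H1f0. H1f0 lay above H2afv without overlap. From H2afv through Hist1h1c, H2afy and Hist1h2bc to Hist3h2a each gene overlapped with the next, and Hist3h2a lay above Hist2h2be. Of the 75 genes, 15 reached a mean of 5 FPKM, 8 of the 11 replacement variants and 7 of the 64 replication-dependent genes.

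The replication-dependent signal was very uneven. Hist1h2ap and Hist1h2ao, both genes for an H2A protein, together made up 87.1% of the summed FPKM of the 64 genes. Hist1h4i was the leading H4 gene, Hist1h1c (19.1 FPKM) the leading H1 gene, and Hist1h2bc (15.2 FPKM) and Hist2h2be (5.86 FPKM) the leading H2B genes. No H3 gene of this kind reached 2 FPKM, the highest being Hist1h3c at 1.77 FPKM, Hist1h3g at 1.64 FPKM and Hist2h3b at 1.45 FPKM. The remaining 57 genes had mean levels from 0.0933 to 3.22 FPKM.

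**Figure D2:**
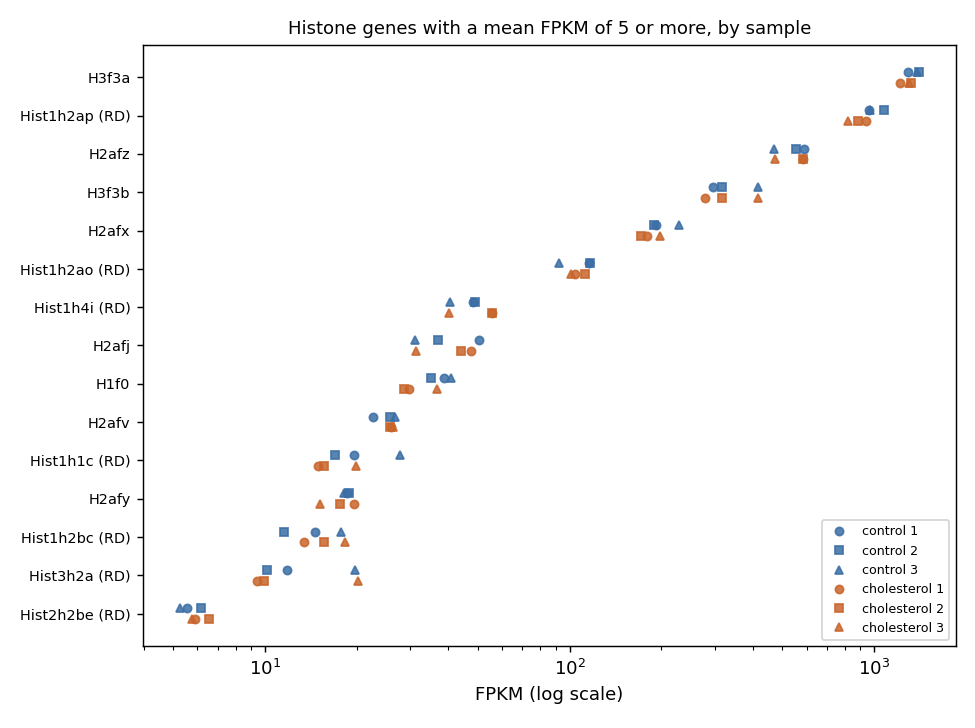
FPKM (x axis, log scale) of the 15 histone genes with a mean of 5 FPKM or more, 1 point per sample; blue is control, orange is cholesterol, and the symbol gives the replicate number, with RD marking replication-dependent genes. H3f3a and Hist1h2ap lie above all others, at means of 1319 and 940 FPKM, and for Hist1h2ap all 3 control points lie to the right of the 3 cholesterol points.

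The short reads limit how far copies can be told apart. Of the 50-base stretches in Hist1h2ap, 93.1% occur in another annotated gene, most of them in Hist1h2ao, and for Hist1h2ao the share was 93.5%. The median over the replication-dependent genes was 64.9%. Hist1h2bq and Hist1h2br are fully contained in each other's annotated sequence (100% shared), and the part of Hist3h2a up to its stem-loop is wholly contained in the annotated sequence of Trim17. Far less was shared in Hist2h2be (0%), H1f0 (5.68%), H2afx (9.66%) and Hist1h1c (18.9%). Among the replacement variants, sharing was highest in H3f3a (79.5%, over 38 other annotated genes), H3f3c (73.8%) and H2afz (69.6%, mostly with Tmcc1). Values of Hist1h2ap, Hist1h2ao, Hist1h2bq, Hist1h2br, Hist3h2a, H3f3a, H3f3c and H2afz are therefore uncertain as to the copy. Among other named genes, Hist2h3b (100% shared) and Hist1h4k (71.5%) carry the same limit. To a lesser degree it also holds for Hist1h3g (58.6%), Hist1h4i (54.7%) and Hist1h3c (52.8%).

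The comparison of cholesterol with control asked whether the polyadenylated histone transcripts differed after 30 h. With the condition alone in the edgeR model, no histone gene passed an adjusted p of 0.05 among 42 tested genes (0 higher and 0 lower, and 1 and 1 at an unadjusted p under 0.05), beside 1 of 11277 genes tested, 0.00887%. At an unadjusted p under 0.05 in this edgeR fit, 81 of the 11277 genes were higher (0.718%) and 216 lower. DESeq2 and limma on log2(FPKM + 1) also called 0 histone genes, where all genes gave 0.275% and 0.00887%. With the pairs in the edgeR model, 1 histone gene rose and 5 fell. All genes tested gave 1.65% higher and 5.2% lower in this edgeR fit, and the histone genes 2.38% and 11.9%, with Hist1h2bq and Hist1h2br, which share their sequence, among the 6. DESeq2 with the pairs called 0 histone genes higher and 3 lower (H1f0, H2afx and Hist1h2ap), where all genes gave 0.364% and 2.2%. With the pairs, limma called Hist1h2bq higher and 0 lower, where all genes gave 0.124% and 0.31%. Among the 42 tested genes, control lay above cholesterol without overlap in 2 (4.76%, all genes 4.28%) and cholesterol above control in 3 (7.14%, all genes 3.72%). Lower in all 3 pairs were 11 (26.2%, all genes 20.1%) and higher in all 3 pairs 5 (11.9%, all genes 19.9%). The median log2 fold change was −0.12 with the condition alone, where all genes gave 0.01; it was −0.03 without control 3 and −0.24 without control 2. The 33 genes that did not pass the filter on low counts, 31 of them replication-dependent, had mean counts of at most 10.4 per sample and were not tested; the filter keeps genes by their level, so these counts describe the 42 genes and not all 75.

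**Figure D3:**
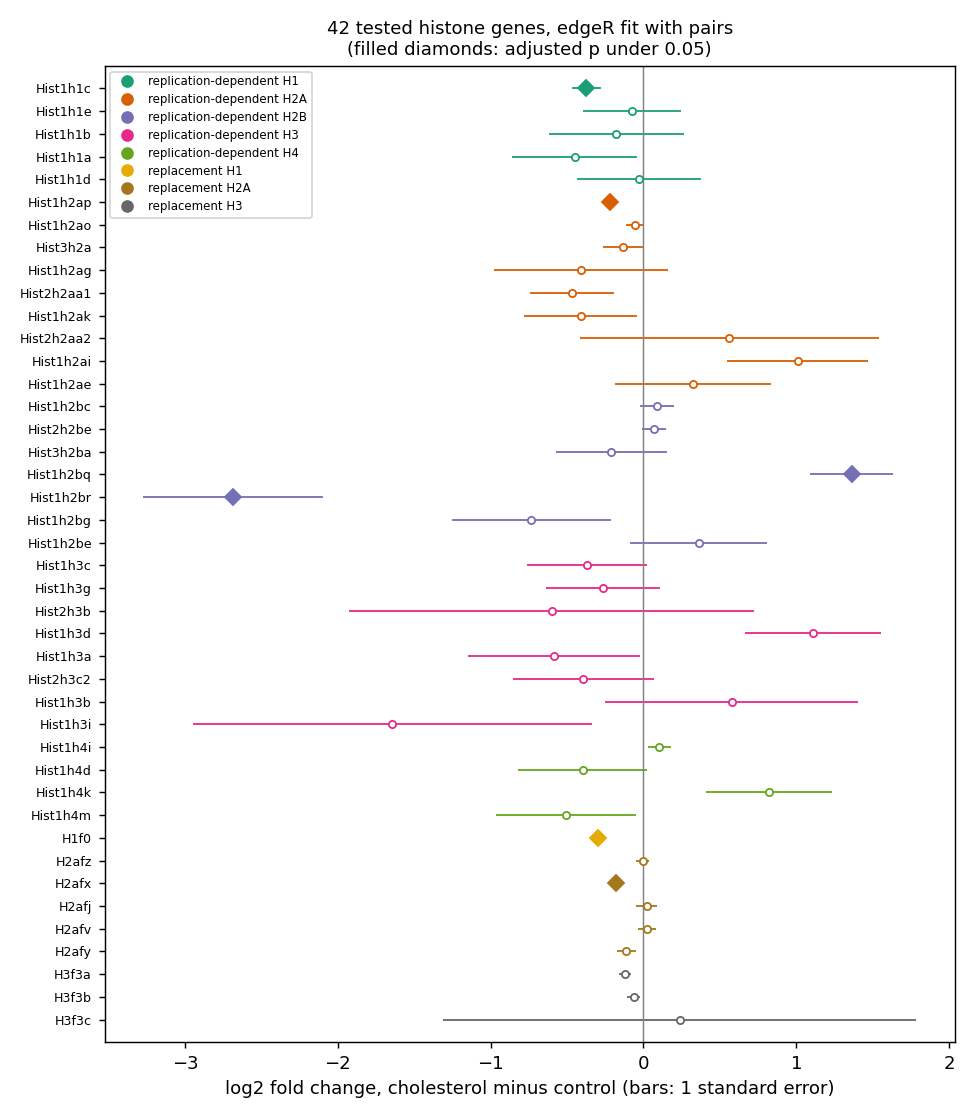
log2 fold change (cholesterol minus control, x axis) of the 42 tested histone genes in the edgeR fit with the pairs, with 1 standard error as bars; colours give the class and filled diamonds mark an adjusted p under 0.05. The 5 genes that fell lie left of 0 and the 1 that rose, Hist1h2bq, lies right; bars are widest among the low H2A, H2B and H3 genes.

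H1f0 stood at 91.1, 80.1 and 98.3 CPM in control 1 to 3 and at 67.8, 65.3 and 86.7 CPM in cholesterol 1 to 3. It was lower with cholesterol in each pair, while cholesterol 3 lay above control 2, so that the groups overlapped. With the pairs, H1f0 fell by 0.30 on the log2 scale (SE 0.05, adjusted p = 0.0012); with the condition alone the value was −0.30 (SE 0.13, adjusted p = 0.9998). The gene is on chr15:79028450-79030504 (plus strand). The other H1 gene of this kind, H1fx, was near the floor at 0.20 to 0.62 CPM.

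Hist1h1c, which encodes the linker histone H1.2, stood at 14.1, 11.8 and 20.5 CPM in control and 10.4, 10.8 and 14.3 CPM in cholesterol samples. The groups overlapped, and pair 2 differed least. With the pairs it fell by 0.37 on the log2 scale (SE 0.09, adjusted p = 0.0191), but DESeq2 with the pairs gave an adjusted p of 0.403 for it. The call was also lost in edgeR without pair 1 (adjusted p = 0.113) and without pair 3 (0.122), and in limma with the pairs (0.130). With the condition alone its log2 fold change was −0.39, and −0.13 without control 3. The other H1 genes of the cluster were low, led by Hist1h1e (1.53 FPKM) and Hist1h1b (1.198 FPKM), and their log2 fold changes with the pairs were −0.08 (SE 0.32) and −0.18 (SE 0.44).

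Hist1h2ap stood at 417, 453 and 431 CPM in control and at 394, 371 and 356 CPM in cholesterol samples. All 3 control samples were above all 3 cholesterol samples. It fell by 0.22 on the log2 scale with the pairs (SE 0.05, adjusted p = 0.0060 in edgeR). The call was lost without pair 2 (adjusted p = 0.120 in edgeR) and in limma with the pairs (0.171). With the condition alone the value was −0.22 (SE 0.07, unadjusted p = 0.0166 and adjusted p = 0.9998 in edgeR). Its near copy Hist1h2ao stood at 62.5, 60.8 and 50.9 CPM in control and 54.2, 58.3 and 54.5 CPM in cholesterol samples, with a log2 fold change of −0.06 (SE 0.06, adjusted p = 0.670). Added together, which settles the split between these 2 genes but not reads shared with other H2A copies, they gave 480, 513 and 482 CPM in control and 448, 429 and 411 CPM in cholesterol samples, again without overlap. Hist3h2a, at 5.86, 4.85 and 10.02 CPM against 4.44, 4.74 and 9.97 CPM, was high in both samples numbered 3 and had a log2 fold change of −0.13 (SE 0.13).

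H2afx stood at 266, 255 and 326 CPM in control and 240, 231 and 275 CPM in cholesterol samples. Each pair was lower with cholesterol, the groups overlapped, and control 3 was the highest sample. With the pairs it fell by 0.18 on the log2 scale (SE 0.04, adjusted p = 0.0119); with the condition alone the adjusted p was 0.9998, and without control 3 the log2 fold change there was −0.07. The call was lost without pair 1 (adjusted p = 0.0599) and without pair 2 (0.0651). The other H2A variants did not pass. H2afz stood at 633, 573 and 514 CPM against 602, 605 and 506 CPM, and its log2 fold change was −0.01 (SE 0.04, adjusted p = 0.964). H2afj, at 94.8, 67.3 and 59.8 CPM against 85.7, 79.8 and 58.5 CPM, gave 0.02 (SE 0.07).

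**Figure D4:**
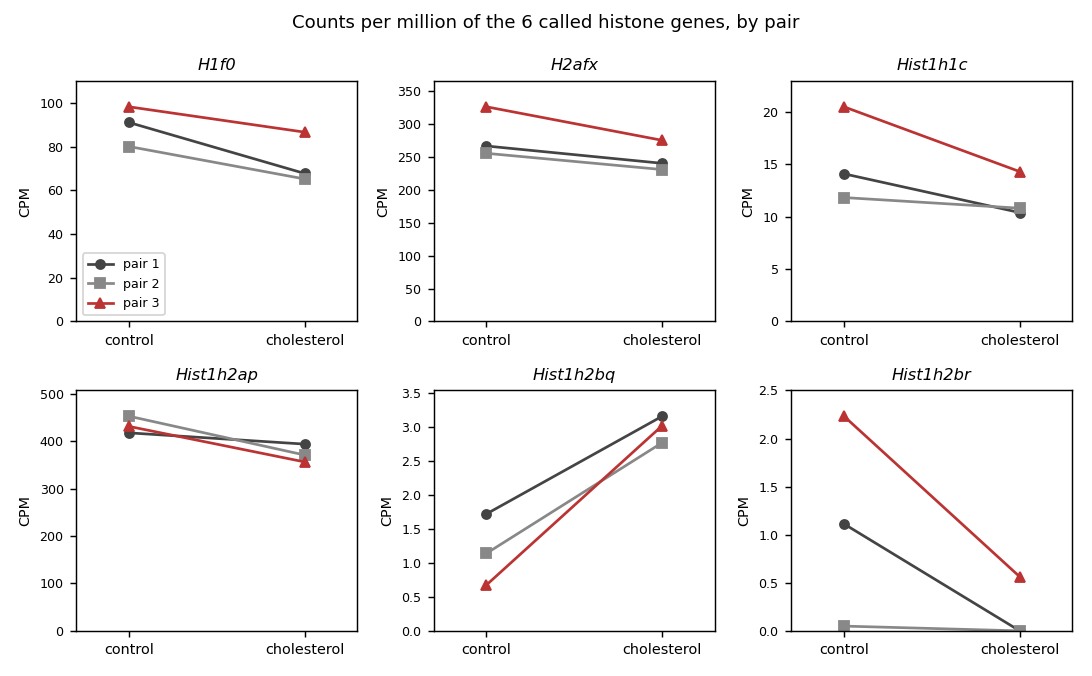
CPM (y axis from 0, separate scale in each panel) of the 6 histone genes called with the pairs in the model, with a line joining the control and cholesterol samples of each pair. H1f0, H2afx, Hist1h1c and Hist1h2ap go down in all 3 pairs; the lines of Hist1h2bq go up and those of Hist1h2br go down, at 0.675 to 3.15 CPM and 0 to 2.23 CPM.

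The 2 remaining calls were both H2B genes whose sequences cannot be separated. Hist1h2bq stood at 1.72, 1.14 and 0.675 CPM in control and 3.15, 2.77 and 3.02 CPM in cholesterol samples, without overlap, and rose by 1.36 on the log2 scale with the pairs (SE 0.27, adjusted p = 0.0039), where DESeq2 with the pairs gave an adjusted p of 0.0550. Hist1h2br stood at 1.11, 0.0495 and 2.23 CPM in control and 0, 0 and 0.562 CPM in cholesterol samples, and fell by 2.69 on the log2 scale (SE 0.59, adjusted p = 0.0097), with no adjusted p from DESeq2. That fold is unstable: with the condition alone it was −2.57, and it became −7.50 without cholesterol 3 and −1.61 without control 3, while limma gave −0.57. Without pair 3 the gene did not pass the filter. The 2 values moved in opposite directions in every pair, and their sum was 2.83, 1.19 and 2.91 CPM in control and 3.15, 2.77 and 3.58 CPM in cholesterol samples, so the groups overlapped once the copies were added; the sum was higher with cholesterol in each pair, by 0.16, 1.22 and 0.30 on the log2 scale. Among the higher H2B genes, Hist1h2bc stood at 10.6, 8.07 and 13.1 CPM against 9.41, 10.9 and 13.3 CPM (log2 fold change 0.09, SE 0.11). Hist2h2be stood at 15.3, 16.5 and 14.8 CPM against 15.6, 17.4 and 15.8 CPM (0.07, SE 0.08). Hist3h2ba, the third H2B gene by level, gave −0.21 (SE 0.36).

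For histone H3, H3f3a stood at 1423, 1489 and 1558 CPM in control and 1287, 1400 and 1424 CPM in cholesterol samples, lower in each pair, with overlapping groups. Its log2 fold change with the pairs was −0.12 (SE 0.04), and the adjusted p of 0.0638 missed the threshold. H3f3b, at 605, 629 and 874 CPM against 548, 624 and 850 CPM, gave −0.06 (SE 0.04, adjusted p = 0.423). H3f3b was again highest in both samples numbered 3. H3f3c was low and gave 0.24 (SE 1.55). The 3 highest replication-dependent H3 genes gave −0.37 (SE 0.40) for Hist1h3c, −0.27 (SE 0.37) for Hist1h3g and −0.60 (SE 1.33) for Hist2h3b.

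For histone H4, Hist1h4i stood at 18.5, 18.2 and 15.9 CPM in control and 20.6, 20.6 and 15.4 CPM in cholesterol samples. It was higher with cholesterol in pairs 1 and 2 and lower in pair 3, and its log2 fold change was 0.10 (SE 0.08, adjusted p = 0.513). Hist1h4d (1.70 FPKM) gave −0.40 (SE 0.42) and Hist1h4k (1.62 FPKM) 0.82 (SE 0.41). Across the 24 low replication-dependent genes that were tested and not called, values ran from −1.64 to 1.11 with standard errors of 0.27 to 1.33.

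Summing CPM over a whole class uses every gene, the untested ones included. The 64 replication-dependent genes summed to 573, 593 and 594 CPM in control and 533, 517 and 510 CPM in cholesterol samples (587 ± 12.015 and 520 ± 11.8, SD, n = 3), without overlap. The log2 difference was −0.10, −0.20 and −0.22 in pairs 1 to 3. Without Hist1h2ap the sum was 155, 141 and 163 CPM in control and 139, 146 and 154 CPM in cholesterol samples, with overlap, and the pairs gave −0.16, 0.06 and −0.09. The H2A class, which Hist1h2ap dominates, differed by −0.10, −0.25 and −0.23. The far smaller H1 sum gave −0.48, 0.02 and −0.47 and the H3 sum −0.59, −0.02 and −0.43, while the H2B class gave −0.05, 0.25 and 0.00 and the H4 class 0.12, 0.13 and −0.10. The replacement variants as a whole summed to 3302 ± 192 CPM in control and 3098 ± 181 CPM in cholesterol samples, with log2 differences of −0.13, −0.04 and −0.10. The groups overlapped for the replacement sum, and each pair was lower with cholesterol. No test was made of these sums. In sorted bulk samples, fewer cells of a kind and less RNA per cell cannot be told apart.

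**Figure D5:**
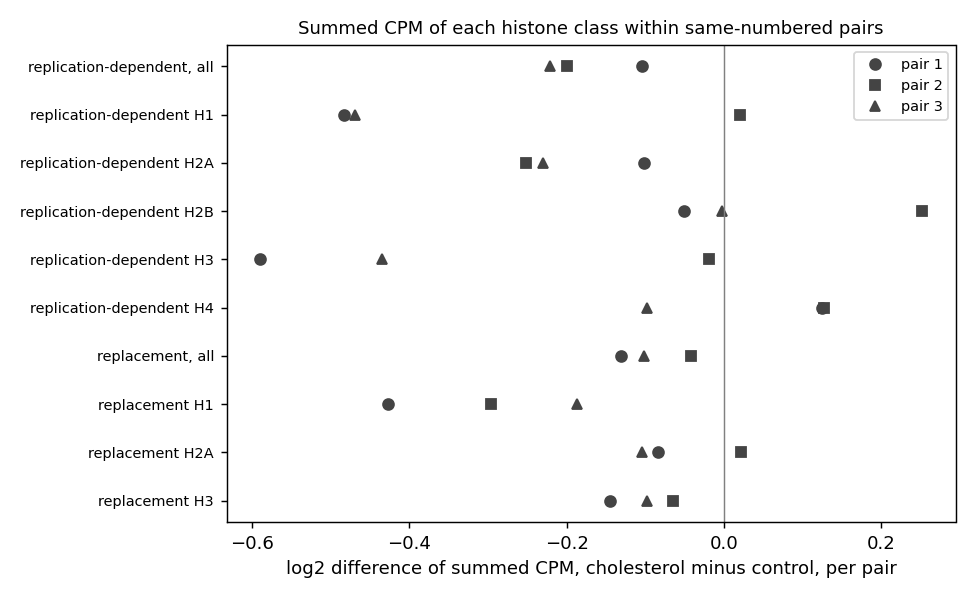
log2 difference of the summed CPM, cholesterol minus control (x axis), for each histone class, 1 symbol per pair. All 3 pairs lie below 0 for the replication-dependent sum (−0.10, −0.20 and −0.22) and for the replacement sum. The same holds for the replication-dependent H2A and H3 classes and for the replacement H1 and H3 classes. The replication-dependent H1, H2B and H4 classes and the replacement H2A class have pairs on both sides.

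Markers of other cell types moved in the same contrast. The granulocyte markers were lower with cholesterol in 10 of 10 genes, with a median log2 fold change of −1.12, and 9 of them fell with the pairs in the model. Over all genes 47.9% had a lower value and 5.2% fell with the pairs. Macrophage markers were lower in 8 of 8 tested genes (18.6 to 130 CPM in control, 13.1 to 57.9 CPM in cholesterol samples) and 5 fell. Of the 8 mast cell and basophil markers 7 were in the tables and 3 were tested, all of which fell, at sums of 3.18 to 30.4 CPM against 1.23 to 5.06 CPM; Tpsb2 was at 0 in every sample. Erythroid markers were lower in 11 of 12 genes, with a median of −0.12, and 4 fell. Megakaryocyte markers were lower in 5 of 7 and 1 fell; hepatocyte markers were higher in 4 of 5 and 0 were called. The part of these cells in the histone values was not tested.

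The genes that make, process and deposit histones were read from the same fits. Of 25 genes for histone mRNA transcription and processing, 0 passed with the condition alone in edgeR and 0 in DESeq2 (1 and 2 higher at an unadjusted p under 0.05), and 2 rose in edgeR with the pairs. All genes tested gave 0.718% higher at an unadjusted p under 0.05 with the condition alone and 1.65% called higher with the pairs. DESeq2 and limma with the pairs called 0 of the 25. Npat, the cyclin E-Cdk2 substrate that activates histone gene transcription, stood at 71.7, 74.2 and 76.9 CPM in control and 80.8, 85.1 and 88.0 CPM in cholesterol samples, without overlap, and rose by 0.19 on the log2 scale (SE 0.05, adjusted p = 0.0186; 0.252 by DESeq2 with the pairs). Ccne2, which encodes a cyclin E, stood at 121, 122 and 128 CPM against 124, 153 and 153 CPM and rose by 0.20 (SE 0.05, adjusted p = 0.0332; 0.140 by DESeq2 with the pairs). Slbp, the protein that binds the printed stem-loops, did not pass: 437, 420 and 439 CPM against 411, 462 and 462 CPM, log2 fold change 0.04 (SE 0.05, adjusted p = 0.691). Casp8ap2 (FLASH), a factor for 3′ end cleavage, stood at 48.4, 52.8 and 55.3 CPM against 48.0, 60.5 and 64.5 CPM, log2 fold change 0.14 (SE 0.06, adjusted p = 0.171).

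Of 28 histone chaperone and deposition genes, 0 passed with the condition alone in edgeR and 0 in DESeq2. At an unadjusted p under 0.05, edgeR had 2 higher, and DESeq2 1 higher and 1 lower. All genes gave 0.718% higher in edgeR, and 0.674% higher and 249 of 11277 lower in DESeq2. DESeq2 with the pairs called 1 of the 28 genes, Nasp (adjusted p = 0.0434), where all genes gave 0.364% higher. DESeq2 gave an adjusted p of 0.393 for Asf1a and 0.0597 for Ssrp1, and limma with the pairs called 0. In edgeR with the pairs 3 rose and 0 fell, where all genes gave 1.65% higher and 5.2% lower. The 3 were Asf1a, an H3-H4 chaperone, at 72.3, 72.5 and 71.4 CPM against 81.2, 87.8 and 75.7 CPM without overlap (log2 fold change 0.18, SE 0.05, adjusted p = 0.0408); Nasp, which holds soluble H3-H4, at 180, 173 and 135 CPM against 199, 199 and 158 CPM (0.19, SE 0.04, adjusted p = 0.0089); and Ssrp1, a subunit of the FACT complex, at 311, 302 and 273 CPM against 341, 337 and 308 CPM (0.16, SE 0.04, adjusted p = 0.0235). Samples numbered 3 were the lowest of their group for Nasp and Ssrp1. Of 20 DNA replication genes 17 had a higher value with cholesterol and 0 were called in either edgeR fit, with 7 higher at an unadjusted p under 0.05 with the pairs. Among all genes 5872 of 11277 (52.1%) had a higher value, and 902 were higher at an unadjusted p under 0.05 with the pairs. The medians of the 3 lists were 0.06, 0.07 and 0.06 on the log2 scale with the condition alone, beside 0.01 for all genes.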

How the data were processed

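Polyadenylated RNA of 6 libraries was read as single ends of 50 bases. The authors deposited estimated counts per gene and a normalized table. The submitters' processing notes name HISAT2 2.0.4, Bowtie2 2.2.5, RSEM 1.2.12, DESeq2 1.4.5 and GRCm38.p6. The deposited normalized values are not labelled with a unit and were taken as FPKM, because count, value and sample total together imply a length per gene that, for genes such as H3f3b (2020 bases, 1993 annotated) and H2afv (1640, 1633 annotated), is near the annotated one. Other genes lay further off, such as H3f3a (1083 bases, 888 annotated), H1f0 (2328, 2055 annotated) and H2afy (2467, 2046 annotated). The counts were not whole in 27.9% to 29.5% of genes by sample and were rounded. Counts of a gene were assigned upstream by a model that divides ambiguous reads between copies, which bears on near-identical histone genes.

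Groups follow the sample labels, and 0 deposited sample columns were left out. Counts were scaled with TMM, filtered with filterByExpr (minimum count 10, minimum total 15) and tested with edgeR 4.0.16 (quasi-likelihood, R 4.3.3) with Benjamini-Hochberg adjustment over 11277 genes and a threshold of 0.05. The condition alone was the first model, and a second model added the replicate number as a block. Same-numbered samples deviated together from their group means, with correlations across genes of 0.772, 0.436 and 0.848. Samples with different numbers gave −0.824 to 0.415, control 1 with cholesterol 2 being the highest. Samples numbered 3 against those numbered 1 or 2 all gave negative values (−0.824 to −0.393), while control 2 with cholesterol 1 gave 0.219. The samples numbered 3 thus stood apart more clearly than pairs 1 and 2 did from each other. The numbers were taken to pair the samples, and both fits are given. DESeq2 1.42.0 and limma 3.58.1, on log2(FPKM + 1), were run as alternatives. The edgeR and DESeq2 fits were also run on counts simulated from the fitted edgeR model with the pairs, a setting that favours that model. Limma was run there only without the pairs, so limma with the pairs was not covered. Sequences and lengths came from GENCODE M21. Named histone genes are those called in either edgeR fit and the 3 with the highest mean FPKM in each class. Named genes of the other lists are Slbp, Npat, Casp8ap2 and those called in either fit. The members and lists were chosen with earlier results of these data known.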

Additional observations from a re-analysis of the deposited data

How the results depend on the processing

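With the pairs left out of the model, edgeR called 0 histone genes in either direction, and the replicate block gave 1 higher and 5 lower; DESeq2 with the block gave 0 higher and 3 lower. The other 11 settings run on the condition alone (scaling, filter, DESeq2, limma, each replicate left out) also gave 0 and 0. The block likewise gave 2 higher genes of the processing list and 3 of the chaperone list, where the condition alone gave 0; DESeq2 with the block gave 0 and 1, and limma with the block 0 and 0. Fits repeated with the block were chosen after seeing the data. In these, RLE scaling and no filter gave 1 higher and 5 lower, a minimum of 10 counts in every sample gave 1 and 4, and limma gave 1 and 0. Leaving out 1 pair gave 0 to 2 higher and 2 to 4 lower: 1 and 3 without pair 1, 0 and 2 without pair 2, and 2 and 4 without pair 3. H1f0 passed in every edgeR and DESeq2 fit with the block (adjusted p 1.27e-08 to 0.0418) and missed with limma (0.108). Hist1h2ap missed without pair 2 (0.120) and with limma (0.171). H2afx missed without pair 1 (0.0599), without pair 2 (0.0651) and with limma (0.146), and Hist1h1c missed without pair 1 (0.113), without pair 3 (0.122), with DESeq2 (0.403) and with limma (0.130). Hist1h2bq missed without pair 2 (0.0610) and with DESeq2 (0.0550), and Hist1h2br without pair 2 (0.0541) and with limma (0.225); DESeq2 gave Hist1h2br no adjusted p. Without control replicate 3 and with no block, the log2 fold change was −0.07 for H2afx and −0.13 for Hist1h1c, where all 6 samples gave −0.18 and −0.39. Counting error limits the 57 low replication-dependent genes. The cause of these differences was not tested.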
